A study of Mus musculus with 4 samples.

Results

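The genes described here are 10 genes of the centriole and basal body: Plk4, Stil, Sass6, Cenpj, Cetn2, Cetn3, Odf2, Ofd1, Pcm1 and Poc1a. They were chosen by their symbols, and all 10 were found among the 18471 genes of the table and among the 17300 that were tested. RNA was measured by sequencing in mouse retina at embryonic day 19. There were 2 libraries from wild-type embryos and 2 from embryos labelled Foxn3KO, homozygous for an allele that lacks exon 3 of the forkhead factor gene Foxn3 (C57BL/6NJ-Foxn3em1(IMPC)Bay/Mmnc). Each library came from an individually genotyped embryo, and the labels name no further allele, treatment, litter or sex. The study asks how Foxn3 takes part in the control of primary cilia in the developing retina.

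A centriole is a cylinder of microtubules that a dividing cell copies once per cycle. The kinase Plk4 starts the copy, Stil and Sass6 build the cartwheel at its base, and Cenpj adds the microtubules of its wall. When a cell makes a cilium, the older centriole docks at the membrane through its distal appendages and becomes the basal body, while centriolar satellites, built on Pcm1, carry proteins to it. In the retina, dividing progenitors carry primary cilia, and photoreceptors later build their light-sensing outer segment on a modified one.

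Total counts ranged from 22543531 to 29360129 per library. Foxn3 itself was higher in the libraries labelled Foxn3KO, with 2421 and 2712 counts against 4181 and 3219; counts per gene do not resolve exon 3, so the groups are named by their labels, on which each direction rests. Wild-type replicate 1 had 83073 counts of Xist, against 9 to 19 elsewhere, and 0 counts of the Y-linked genes Ddx3y, Eif2s3y and Kdm5d, against 1461 to 2317 elsewhere. All 20 retina markers were present, with a summed level of 4582 to 4803 CPM over the 4 libraries. CPM are counts scaled to a common library size after TMM, as edgeR computes them. In the genotype test given below, 5 of the 20 were higher in Foxn3KO and 2 lower. Of all tested genes, 12.3% were higher and 9.66% lower. Lens markers differed between the groups: their summed level was 9.36 and 73.1 CPM in the wild-type libraries and 356 and 357 CPM in the Foxn3KO libraries, and all 9 tested lens markers rose (10 of 13 were in the table, none of them at 0 in any library). Pigment epithelium markers summed to 89.8 and 118 CPM in wild-type and to 73.0 and 73.9 CPM in Foxn3KO, with 4 of 8 tested lower. In bulk tissue, fewer cells of a type and less RNA per cell cannot be told apart.

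The promoters of 4 of the genes are shown because their levels behaved differently between the genotypes: Cetn2 and Odf2 rose, Plk4 fell, and Cetn3, the other centrin, did not pass the test. The windows run from 250 bases before to 50 bases after a transcription start, are read 5′ to 3′ on the gene's strand, and come from RefSeq on GRCm38.p6; 9 of the 10 genes matched, and Pcm1 did not. Capitals mark matches on either strand to GTTNCC, the core of the site bound by RFX factors (regulators of cilia genes), and to GTTNCCNNNNNAAC. The longer letters hold a core, then free letters (N), then AAC, which is only the end of the site's inverted arm. Odf2 has 4 annotated starts, of which the first is shown.
Cetn2 (chrX:72918295-72918594, minus strand): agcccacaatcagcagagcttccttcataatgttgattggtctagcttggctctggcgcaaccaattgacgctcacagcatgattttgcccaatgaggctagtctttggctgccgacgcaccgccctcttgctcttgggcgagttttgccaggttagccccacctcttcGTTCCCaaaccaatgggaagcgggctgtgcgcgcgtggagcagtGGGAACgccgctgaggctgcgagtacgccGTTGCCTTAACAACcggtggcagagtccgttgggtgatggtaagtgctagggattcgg
Cetn3 (chr13:81782997-81783296, plus strand): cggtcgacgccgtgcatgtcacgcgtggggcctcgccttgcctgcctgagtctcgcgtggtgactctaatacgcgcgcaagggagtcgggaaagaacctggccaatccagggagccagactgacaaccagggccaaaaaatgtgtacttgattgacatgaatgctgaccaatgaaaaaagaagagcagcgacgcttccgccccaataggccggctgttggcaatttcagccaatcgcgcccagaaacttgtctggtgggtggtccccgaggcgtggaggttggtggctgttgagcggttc
Odf2 (chr2:29889470-29889769, plus strand): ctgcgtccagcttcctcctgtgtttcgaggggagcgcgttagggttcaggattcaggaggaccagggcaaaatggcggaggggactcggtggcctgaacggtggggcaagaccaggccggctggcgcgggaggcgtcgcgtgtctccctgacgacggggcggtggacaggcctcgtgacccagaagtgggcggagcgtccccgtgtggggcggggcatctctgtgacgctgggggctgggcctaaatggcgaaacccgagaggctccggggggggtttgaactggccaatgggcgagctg
Plk4 (chr3:40799701-40800000, plus strand): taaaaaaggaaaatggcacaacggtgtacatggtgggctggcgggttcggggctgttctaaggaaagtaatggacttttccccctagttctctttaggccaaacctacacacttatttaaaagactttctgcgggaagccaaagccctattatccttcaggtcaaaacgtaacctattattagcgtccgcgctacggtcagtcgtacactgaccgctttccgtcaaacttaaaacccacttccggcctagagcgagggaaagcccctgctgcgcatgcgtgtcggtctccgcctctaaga

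Of the 9 genes with a promoter, 1 held the longer letters, Cetn2, as GTTGCCTTAACAAC beginning 8 bases before the start. The same letters were found in 1.35% of the 32851 promoters in the table and for 1.56% of its 27025 genes. The shorter GTTNCC, which is part of the longer one, was found in Stil, Sass6, Cenpj, Cetn2 and Poc1a, that is 5 of 9 genes, against 48.8% of all genes. No window of Cetn3, Odf2, Plk4 or Ofd1 held it. The forkhead core TAAACA was found in 1 of 9 genes, Sass6, against 15.1% of all genes. CCAAT was found in Stil, Cetn2, Cetn3 and Odf2 (4 of 9, against 41.1% of all genes) and TTTGAA in Sass6 and Odf2 (2 of 9, against 20.2%). The E2F-like letters TTTNNCGC were in none of the 9 and in 5.93% of all genes. These letters were searched on both strands, and a match describes the sequence only.

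Expression of the 10 genes was compared between the genotypes. Cetn2 rose 1.73-fold and Odf2 1.39-fold in the libraries labelled Foxn3KO, while Plk4 fell by 16.1% and Stil fell by 14.3%. The other 6 genes, Sass6, Cenpj, Cetn3, Ofd1, Pcm1 and Poc1a, did not pass the test. Thus 4 of 10 genes passed, 2 in each direction (edgeR quasi-likelihood test, adjusted p under 0.05). Of all tested genes 21.9% passed, 12.3% higher and 9.66% lower. The median level was 71.4 CPM for the 10 genes and 23.4 CPM for all tested genes. DESeq2 passed 3 of the 10 and 16% of the 15248 genes to which it gave an adjusted p. Both genes that fell are duplication factors. The genes that rose are a centrin and an appendage protein.

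**Figure D1:**
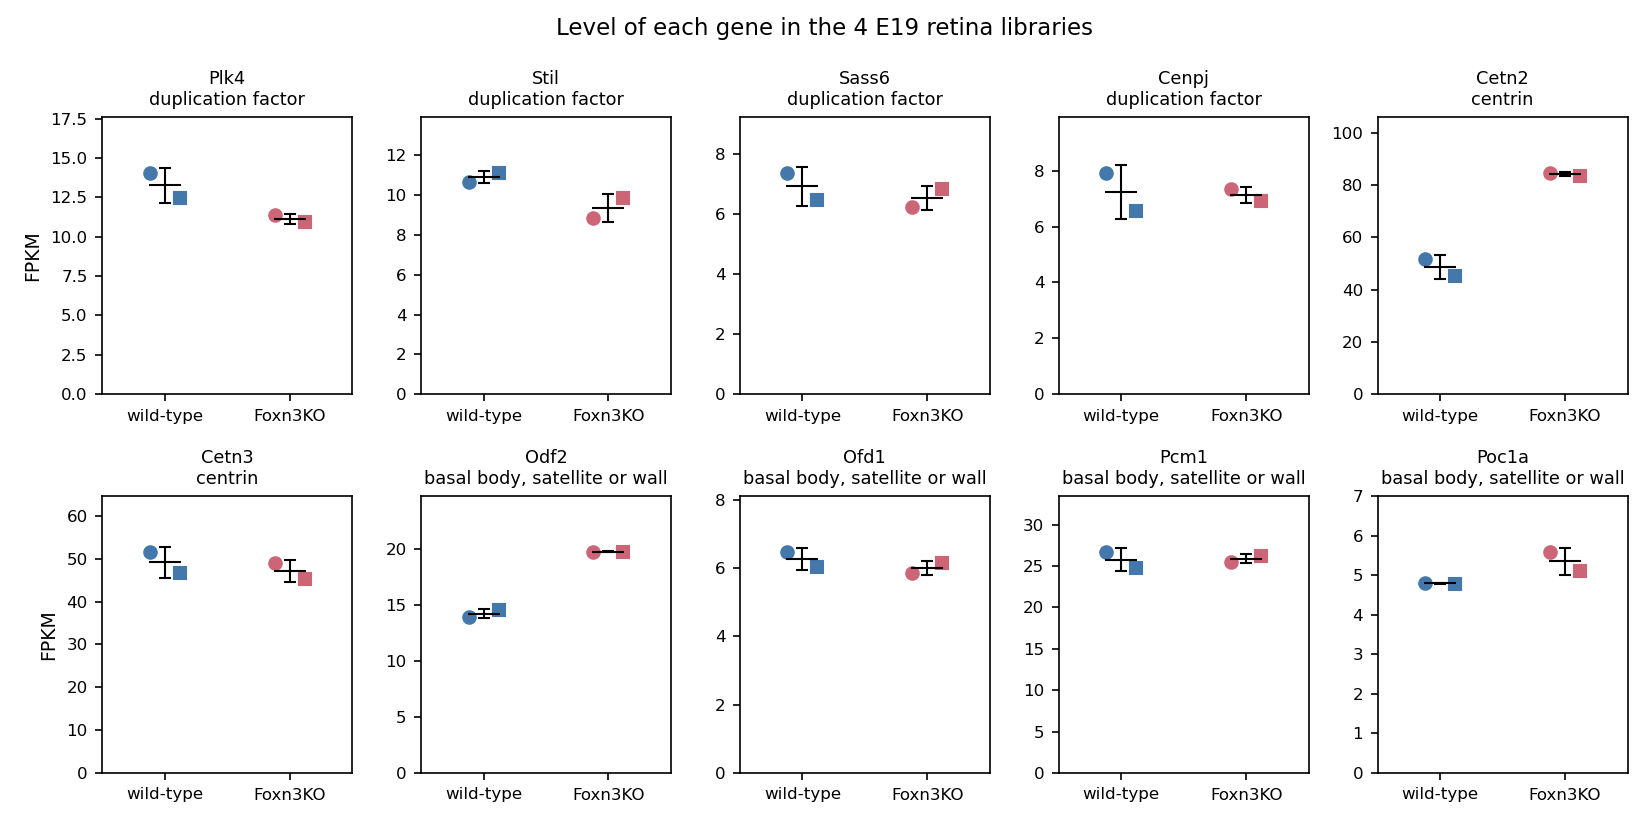
FPKM (y axis, from 0) of each of the 10 genes in the 2 wild-type and 2 Foxn3KO libraries; circles are replicate 1, squares replicate 2, and bars the mean and SD. Cetn2 and Odf2 lie higher in both Foxn3KO libraries, Plk4 and Stil lie lower, and the libraries of the 2 genotypes interleave for Sass6, Cenpj, Cetn3, Ofd1 and Pcm1.

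Plk4, the kinase that starts duplication, had 96.8 and 85.8 CPM in the wild-type libraries and 78.1 and 75.1 CPM in the Foxn3KO libraries. Every Foxn3KO library was below every wild-type library, and the wild-type libraries differed from each other by more than the Foxn3KO libraries did. The means were 91.3 ± 7.77 and 76.6 ± 2.12 CPM (SD, n = 2 each), giving log2 fold change -0.25 with SE 0.058 and adjusted p = 0.00430 by edgeR. Leaving out wild-type replicate 1, the higher library, gave -0.16, with an edgeR adjusted p of 0.00942.

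Stil, which binds Plk4 and brings Sass6 to the new centriole, had 62.2 and 64.6 CPM in wild-type and 51.5 and 57.3 CPM in Foxn3KO. Here the groups did not overlap either, and Foxn3KO replicate 1 was the lowest library. By edgeR, Stil had log2 fold change -0.22 with SE 0.061 and adjusted p = 0.0138. This call was lost in DESeq2 (adjusted p = 0.0515) and when Foxn3KO replicate 1 was left out (log2 fold change -0.15, edgeR adjusted p = 0.298).

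Sass6, the structural protein of the cartwheel, had 45.3 and 39.7 CPM in wild-type and 38.3 and 41.9 CPM in Foxn3KO. Cenpj, which elongates the new centriole, had 38.8 and 32.0 CPM in wild-type and 35.8 and 33.8 CPM in Foxn3KO. For both genes the Foxn3KO libraries lay within or close to the range of the wild-type libraries. The log2 fold change was -0.08 for Sass6, with a 95% interval of -0.24 to 0.07, and -0.02 for Cenpj, with an interval of -0.19 to 0.15. Without wild-type replicate 1 both values turned positive (0.01 and 0.13), and without wild-type replicate 2 Sass6 passed at -0.18 (edgeR adjusted p = 0.0327). In the mouse annotation, 24.5% of the exonic bases of Sass6 lie opposite an antisense gene, Gm42893, and 6.36% opposite Trmt13. The use of strand in the counting is not given in the sources used here, so part of its counts may come from those genes.

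The centrins are small calcium-binding proteins; Cetn2 lies in the lumen of the centriole and also serves in DNA repair, and Cetn3 is its paralog. Cetn2 had 85.7 and 74.9 CPM in the wild-type libraries and 140 and 138 CPM in the Foxn3KO libraries. The groups were far apart compared with the gap inside either group. The means were 80.3 ± 7.58 and 139 ± 1.36 CPM (SD, n = 2 each), giving log2 fold change 0.79 with SE 0.057 and adjusted p = 9.51e-09 by edgeR.

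Cetn3 had 162 and 146 CPM in wild-type and 153 and 142 CPM in Foxn3KO. These ranges overlapped, and the log2 fold change was -0.06 with a 95% interval of -0.18 to 0.05 (edgeR adjusted p = 0.476). That interval ends far below the value of Cetn2. Without wild-type replicate 2 Cetn3 passed at -0.13 (edgeR adjusted p = 0.00732), and without wild-type replicate 1 it was 0.02. In the annotation, 8.67% of its exonic bases lie opposite the antisense gene Gm17259, which had a mean of 144 counts.

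Per unit of length, both centrins stood at the same level in wild-type retina and apart in Foxn3KO retina. The ratio of Cetn2 to Cetn3 in FPKM (fragments scaled by gene length and library depth, as deposited) was 1.00 and 0.973 in the wild-type libraries and 1.73 and 1.84 in the Foxn3KO libraries. With 2 libraries a group, this ratio is given as a description without a test.

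Cetn2 lies on the X chromosome, as does Ofd1, and wild-type replicate 1 differs from the other libraries in Xist and in the Y-linked genes. Among the 3 libraries that share the Y-linked pattern, the log2 fold change of Cetn2 was larger, 0.89, and that of Ofd1 was -0.01. In that comparison wild-type replicate 2 stood alone for its group. Of 550 tested X-linked genes, 23.8% passed the test, against 21.9% of all genes. Lens markers were lower in wild-type replicate 1 than in wild-type replicate 2 (9.36 against 73.1 CPM in sum), while Cetn2 was higher there (85.7 against 74.9 CPM). The part of lens RNA in the rise of Cetn2 was not tested, nor was that of the difference in Xist and the Y-linked genes.

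Odf2, an outer dense fibre protein that the appendages of the older centriole need, had 139 and 145 CPM in wild-type and 196 and 197 CPM in Foxn3KO. Its groups were well separated and its Foxn3KO libraries nearly equal. The means were 142 ± 4.10 and 197 ± 0.368 CPM (SD, n = 2 each), giving log2 fold change 0.47 with SE 0.044 and adjusted p = 3.16e-07 by edgeR. Across the settings tried, leaving out a library included, it stayed between 0.44 and 0.50. Odf2 and the lens markers were both lower in wild-type replicate 1 than in replicate 2, and the part of lens RNA in the rise of Odf2 was not tested.

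Ofd1, a protein of the distal end of the centriole and of the satellites, had 29.0 and 27.0 CPM in wild-type and 26.2 and 27.4 CPM in Foxn3KO. Its log2 fold change was -0.06 with a 95% interval of -0.22 to 0.09. Of its exonic bases, 2.94% lie opposite Trappc2. Pcm1, the satellite scaffold, had the most counts of the 10 genes summed over the libraries, with 200 and 185 CPM in wild-type and 191 and 196 CPM in Foxn3KO. Its log2 fold change was 0.00382, with the tightest limits among the genes that did not pass, -0.10 to 0.10, and its sign was negative under total count scaling (-0.02). These limits correspond to a change between -6.41% and 7.41%.

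Poc1a, a protein of the centriole wall, was the least expressed, with 16.1 and 16.0 CPM in wild-type and 18.8 and 17.1 CPM in Foxn3KO. Both Foxn3KO libraries were above both wild-type libraries, yet the log2 fold change of 0.16 did not pass (95% interval -0.03 to 0.35, edgeR adjusted p = 0.238). In CPM, the groups did not overlap for 5 of the 10 genes (50%), the 4 that passed and Poc1a, where 60.4% of all tested genes had no overlap. Separation of 2 libraries from 2 is thus common in these data.

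**Figure D2:**
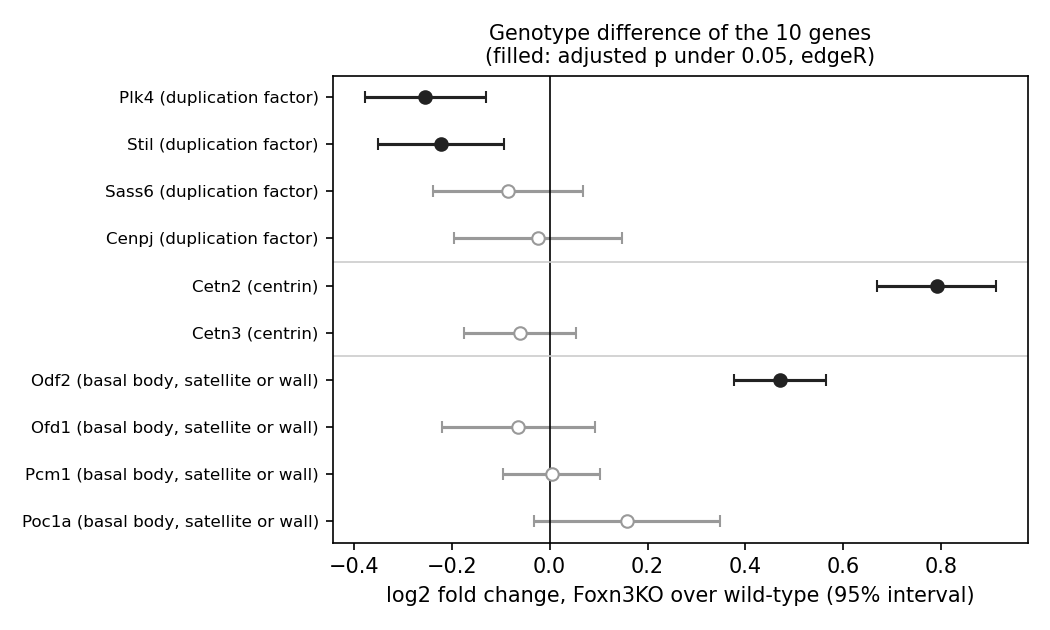
Log2 fold change (x axis, Foxn3KO over wild-type) of the 10 genes with 95% intervals from the edgeR fit, ordered by role and divided by grey lines; filled points passed an adjusted p of 0.05. The 4 duplication factors lie at or below 0 (-0.25 to -0.02), Cetn2 (0.79) and Odf2 (0.47) lie above it, and the intervals of the other genes include 0.

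The duplication factors were set against the basal body genes. All 4 duplication factors had a negative log2 fold change, with a median of -0.15. Without wild-type replicate 1 the median was -0.08, and Sass6 and Cenpj were positive. The 4 genes of the basal body, satellites and wall had a median of 0.08 and a mean of 0.14, and 3 of the 4 were positive. The centrins had 0.79 and -0.06. For all tested genes the median was -0.00470. Since the genes were chosen with results known, no test is given for these medians.

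In single libraries, the mean log2 CPM of the basal body genes exceeded that of the duplication factors by 0.08 and 0.18 in wild-type and by 0.43 and 0.39 in Foxn3KO. The groups did not overlap, and their means were 0.13 and 0.41. Odf2 carried a part of it. Without Odf2, the difference was -0.33 and -0.26 in wild-type and -0.09 and -0.14 in Foxn3KO. The duplication factors alone averaged 5.83 and 5.69 log2 CPM in wild-type and 5.60 and 5.63 in Foxn3KO. For them the wild-type libraries stood as far apart as the group means did, since wild-type replicate 1 was higher than replicate 2 for 3 of the 4 and for 8 of the 10 genes.

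**Figure D3:**
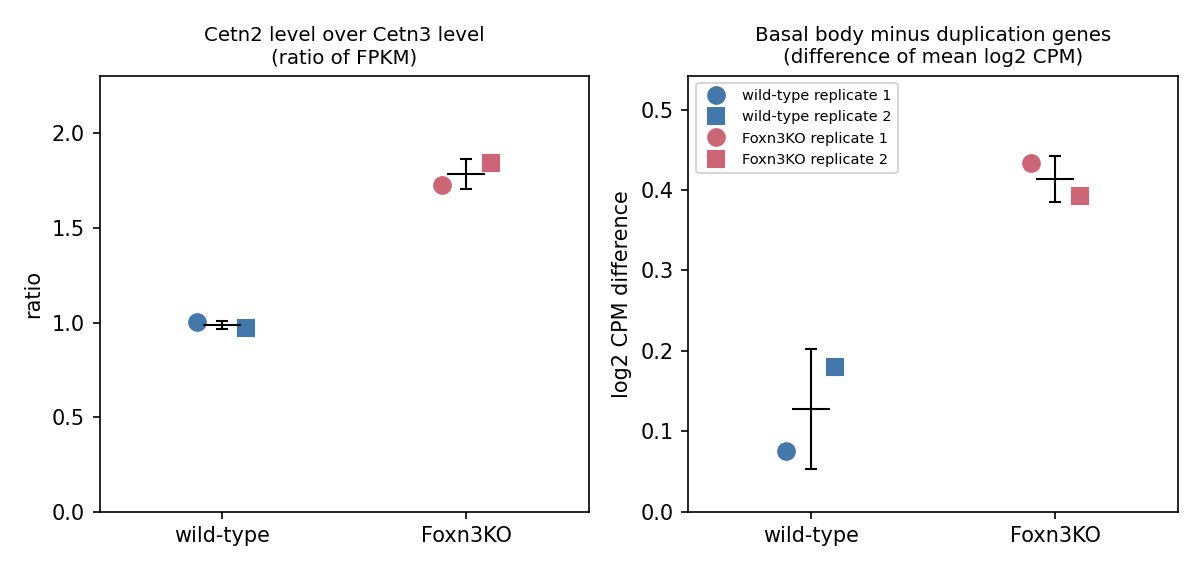
Left, Cetn2 over Cetn3 as a ratio of FPKM; right, mean log2 CPM of Odf2, Ofd1, Pcm1 and Poc1a minus that of Plk4, Stil, Sass6 and Cenpj. Points are single libraries and bars the mean and SD of each genotype; both quantities are higher in each Foxn3KO library (1.73 and 1.84; 0.43 and 0.39) than in either wild-type library (1.00 and 0.973; 0.08 and 0.18).

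Levels between genes were compared in FPKM. In wild-type retina the order was Cetn3 (49.2 ± 3.55 FPKM, SD, n = 2), Cetn2 (48.6 ± 4.52), Pcm1 (25.8 ± 1.38), Odf2 (14.2 ± 0.430), Plk4 (13.3 ± 1.11), Stil (10.9 ± 0.312), Cenpj (7.24 ± 0.969), Sass6 (6.92 ± 0.641), Ofd1 (6.26 ± 0.317) and Poc1a (4.80 ± 0.0114). Of the 9 pairs of neighbours in this order, 4 had ranges that overlapped: Cetn3 and Cetn2, Odf2 and Plk4, Cenpj and Sass6, and Sass6 and Ofd1. In Foxn3KO retina the order differed only at the top, where Cetn2 (84.1 ± 0.814 FPKM) stood above Cetn3 (47.2 ± 2.58), and no neighbours overlapped. Odf2 and Plk4, which overlapped in wild-type, were 19.8 ± 0.0388 and 11.1 ± 0.307 FPKM in Foxn3KO. The ratio of Cetn2 to Plk4 was 3.68 and 3.64 in the wild-type libraries and 7.46 and 7.65 in the Foxn3KO libraries.

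The other genes of the pathway were counted in the same way. Among further centriole duplication genes, 11 of 33 passed the test, 4 higher and 7 lower, with a median log2 fold change of -0.06. Among further basal body and appendage genes, 24 of 41 tested entries passed, 23 higher and 1 lower, with a median of 0.29. Among satellite genes, 10 of 18 passed, all 10 higher, with a median of 0.31. Over all tested genes 21.9% passed, 12.3% higher and 9.66% lower, with a median of -0.00470. The median level was 61.9, 54.2 and 53.5 CPM in these lists, in that order, against 23.4 CPM over all tested genes. The part of this higher level in the shares that passed was not tested, and no test of the lists themselves was made.

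**Figure D4:**
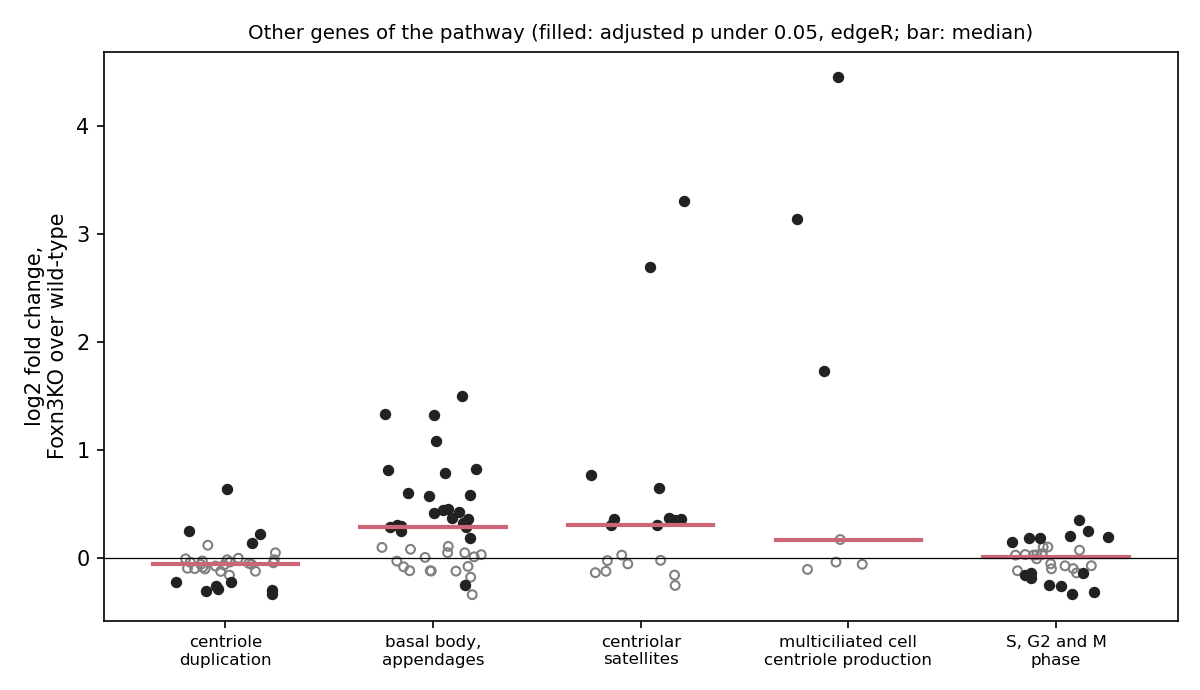
Log2 fold change (y axis, Foxn3KO over wild-type) of the other genes of the pathway in 5 lists. There is 1 point per tested entry (gene identifier), with sideways scatter for legibility. Filled points passed an adjusted p of 0.05 in edgeR and the bar is the list's median. Duplication and cell cycle genes lie around 0 (medians -0.06 and 0.01), and basal body and satellite genes lie mostly above it (0.29 and 0.31).

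Of the duplication genes, Cep295, which the new centriole needs to mature, had 97.1 ± 4.61 CPM in wild-type and fell to 77.2 ± 1.59 CPM (SD, n = 2), which is -0.33 in log2 (edgeR adjusted p = 0.000144). Cep192, a scaffold that recruits Plk4, had a log2 difference of -0.29 (edgeR adjusted p = 0.000900) and fell too, while Cep152, the other Plk4 scaffold, was at -0.12 and did not pass (edgeR adjusted p = 0.268). Spice1, needed for centriole assembly and the spindle, rose most in this list, from 50.9 ± 5.63 to 79.6 ± 2.10 CPM (log2 fold change 0.65, edgeR adjusted p = 9.27e-07). Trim37, a ubiquitin ligase that limits centriole assembly, rose by 0.25 (edgeR adjusted p = 0.000582). Without Foxn3KO replicate 1, 1 duplication gene rather than 4 was called higher, and without Foxn3KO replicate 2, 4 rather than 7 were called lower.

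Odf2 belongs to the appendages, so 6 distal and 5 subdistal appendage genes were picked from the basal body list. Their values had been seen by then, and the sets may not be complete. Lrrc45, Kiz and Tchp of that list were placed in neither set. Lrrc45 did not pass (log2 fold change 0.09), while Kiz (0.42) and Tchp (0.31) rose. The counts and medians below depend on these picks. Of 6 distal appendage genes, 5 rose: Cep89 (log2 fold change 0.45), Cep164 (0.37), Fbf1 (0.37), Cep83 (0.33) and Sclt1 (0.19), with edgeR adjusted p-values from 4.01e-06 to 0.0226, where 12.3% of all tested genes rose. Ankrd26 was at -0.02 (edgeR adjusted p = 0.815). Of 5 subdistal appendage genes, Cep128 rose (log2 fold change 0.31, edgeR adjusted p = 0.000472) and Cntrl fell (-0.25, edgeR adjusted p = 0.00284), while Nin (0.02), Ccdc120 (0.05) and Cep170 (-0.07) did not pass. The medians were 0.35 for the distal and 0.02 for the subdistal appendage genes. The log2 fold change of Odf2, 0.47, was above that of Cep89, the highest of these genes.

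Fam161a, a microtubule-binding protein of the photoreceptor cilium, rose most in the basal body list, from 22.6 ± 0.998 to 64.3 ± 1.34 CPM (SD, n = 2; log2 fold change 1.51, edgeR adjusted p = 4.11e-12). Wdr90, a protein of the centriole wall, rose by 0.79 and Intu, a planar polarity effector that cilia need, by 0.83; they came next in p. Cntrl was the 1 gene of this list that fell. Among satellite genes, Ccdc113 rose by 3.31 on the log2 scale from 0.765 to 7.52 CPM, Ccdc13 by 2.70 from 6.85 to 44.7 CPM, Cep126 by 0.77 and Tex9 by 0.65, with edgeR adjusted p-values of at most 2.25e-08. Pcm1, on which the satellites are built, did not pass. Of the basal body and satellite genes, Ahi1, Cep19, Odf2l and Ccdc113 had the longer RFX letters in a promoter, 3 of 38 and 1 of 14 with a promoter in the table. These 4 rose, as did 23 of the 41 basal body entries and 10 of the 18 satellite genes whatever their promoter. The letters were in 0 of 26 further duplication genes, 0 of 27 cell cycle genes and 0 of 4 multiciliated cell genes. Over all genes the share was 1.56%, so 0 in lists of this size does not set them apart.

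Multiciliated cells make many centrioles at once, from deuterosomes, by a route that also uses Plk4, Stil and Sass6. Of 12 genes of that route, 7 were tested and 3 rose, where 12.3% of all tested genes did. Foxj1, a forkhead regulator of motile cilia, went from 8.01 to 176 CPM (log2 fold change 4.45), Ccno from 1.30 to 11.4 CPM (3.14), and Deup1, the protein of the deuterosome, from 0.426 to 1.43 CPM (1.73, edgeR adjusted p = 0.00353). Deup1 had 12 and 10 counts in the wild-type libraries and 38 and 35 in the Foxn3KO libraries. The other tested genes of the route did not pass: E2f5 (log2 fold change 0.18), Tfdp1 (-0.10), E2f4 (-0.05) and Myb (-0.03). Mcidas, Gmnc, Ccdc78 and Tp73 were not analysed here. None of the 4 duplication factors rose with these genes. Plk4 already had a mean of 91.3 CPM in wild-type, against 1.43 CPM for Deup1 in Foxn3KO. Whether any cells used this route was not tested.

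Transcripts of duplication factors change through the cell cycle, so genes of the S, G2 and M phases are given beside them. Of 32, 15 passed (46.9%, against 21.9% of all tested genes), 7 higher and 8 lower (12.3% and 9.66% of all tested genes), with a median of 0.01. Their summed level was 5929 and 5803 CPM in wild-type and 5803 and 5791 CPM in Foxn3KO. Their median level was 127 CPM, against 23.4 CPM for all tested genes. The part of this higher level in the share that passed was not tested. Nek2, a centrosomal kinase, rose most (0.36), and Bub1, a kinase of the spindle checkpoint, fell most (-0.33), followed in p by the spindle motor Kif11 (-0.24), with edgeR adjusted p-values of at most 0.0005. Plk4 and Stil were at -0.25 and -0.22. DESeq2 called 5 cell cycle genes lower instead of 8, and leaving out 1 library gave 3 to 13. The part of the cell cycle in the falls of Plk4 and Stil was not tested.

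The genes whose pattern over the 4 libraries was most like that of 3 members were sought among 139 genes of these lists and the other members. The measure was the root mean square difference of log2 CPM after centring each gene. Cntrl (0.0111) and Haus6 (0.0206) were nearest to Plk4, Cep126 (0.0294) and Intu (0.0382) to Cetn2, and Fuz (0.0338) and Cep89 (0.0401) to Odf2. With 4 libraries in 2 groups, such likeness mostly reflects the same direction and size of the genotype difference.

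The authors' deposited table gives adjusted p-values under 0.05 for Cetn2, Odf2 and Plk4 of these genes. In the authors' deposited table the log2 fold changes were 0.78 for Cetn2, 0.46 for Odf2, -0.24 for Plk4 and -0.21 for Stil. For Stil the deposited adjusted p was 0.0515. These adjusted p-values equal those of the DESeq2 run made here, so they are not a separate test. In that run the log2 fold changes were 0.79, 0.47, -0.25 and -0.22, in the same order.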

How the data were processed

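Counts of reads per gene, which the authors deposited without normalization, were used in 1 column per library as named by the labels. The submitters' processing notes name DESeq2 and the build mm39; the aligner, the counting tool, the annotation, and the use of strand and of molecular identifiers are not given in the sources used here. FPKM values deposited by the authors were used to compare levels between genes. The mean signal, the log2 fold changes with their errors and the p-values, raw and adjusted, were deposited by the authors and are quoted only where named. The table gave 18471 genes, after 1 repeated identifier was dropped, each with 16 counts or more over the libraries.

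The filter filterByExpr kept 17300 of them. After TMM scaling, the genotypes were compared with the quasi-likelihood test of edgeR (version 4.0.16, R version 4.3.3, its newer fit, no covariate, two-sided); p-values were adjusted over all tested genes by Benjamini-Hochberg and read against 0.05. Each standard error is the fold change over the root of F, and 95% intervals use the total degrees of freedom. The fit was tested on simulated data. Alternatives were RLE and total count scaling, DESeq2 (version 1.42.0), voom in limma (version 3.58.1), the earlier edgeR fit, no filter, a filter of 10 counts in each library, the replicate number as a term, and each library left out in turn. In CPM, 3 counts were worth 0.103 to 0.134, for counting error alone.

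The 10 genes, the 5 pathway lists (141 entries) and the marker lists were chosen with earlier results of these data known, and the promoter motifs and appendage sets after sequences and values were seen. Of each pathway list, the 3 genes with the smallest p and the largest called rise and fall are named; other genes named beside them (Cep192, Cep152, the appendage genes) were picked after their values were seen. A list symbol with 2 gene identifiers counts as 2 entries. Coordinates are given only for the printed promoters, on the GRCm38.p6 build of their table, which is not the build of the counts; chromosomes and overlapping genes came from GENCODE vM21. None of the 9 airway and nasal markers was analysed here. Choroid plexus markers summed to 18.2 to 22.5 CPM in all libraries, with 2 higher and 2 lower of 7. Vessel and mesenchyme markers summed to 396 to 420 CPM, with 2 of 10 higher. Of all tested genes, 12.3% were higher and 9.66% lower. Figures were drawn with matplotlib 3.10.9.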

Additional observations from a re-analysis of the deposited data

How the results depend on the processing

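Of the 10 genes, Cetn2, Odf2 and Plk4 kept their direction and passed in each setting tried. Stil did not pass in DESeq2 (-0.22, adjusted p = 0.0515). Pcm1, which did not pass in any setting, changed sign under total count scaling (-0.0166). DESeq2 called 2437 genes in all instead of 3795, and 5 instead of 8 cell cycle genes lower; the cause was not tested. Total count scaling called 2 satellite genes lower instead of 0 and gave a basal body list median of 0.269. The mean of the basal body members was 0.142 against a median of 0.08.

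Leaving out each library in turn leaves 1 sample in a group, which is then assumed to vary like the other group. The log2 fold changes ranged from -0.299 to -0.146 for Stil, -0.183 to 0.00979 for Sass6, -0.152 to 0.126 for Cenpj, -0.131 to 0.0204 for Cetn3 and -0.0523 to 0.0607 for Pcm1. Genes called ranged from 2336 to 5097, with both lowest counts (2359 and 2336) when a Foxn3KO library was left out. The calls in the lists ranged from 1 to 5 higher and 4 to 10 lower for duplication, 1 to 3 lower for basal body, 0 to 2 lower for satellites, 0 to 1 lower for multiciliated cell genes, and 3 to 9 higher and 3 to 13 lower for the cell cycle. Medians ranged from -0.192 to -0.0759 for the duplication factors, 0.0538 to 0.114 for the basal body members, 0.223 to 0.252 for the basal body list and 0.129 to 0.221 for multiciliated cell genes.

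Equal replicate numbers gave no sign of pairing, since the replicate differences of both groups correlated at -0.00825 across 17300 genes. With the replicate block, 4222 genes were called and the same number of the 10 genes, 4, with log2 fold changes of 0.79 for Cetn2, 0.47 for Odf2, -0.25 for Plk4 and -0.22 for Stil. CPM per relative length gives the same levels relative to Pcm1 as FPKM by construction, so that alternative tests nothing. Depth limits Deup1, with 10 to 38 counts per library.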
